A study of Mus musculus with 8 samples.

Results

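The comparison described here is the host dependence of the CD95 knockout effect in 4T1 tumors, that is, the knockout against wild-type difference in Balb/c mice less the same difference in NSG mice. All 8 samples of the series enter it, as 4 groups of 2, and the difference was read for each of 15310 genes that had enough counts out of 25006 gene identifiers. Interest lay in genes whose direction reversed between the hosts. A gene was counted as reversing when its log2 fold change was at least 1 in size in both hosts with opposite signs, and both knockout samples lay beyond both wild-type samples in each host. That rule found 214 genes, 52 lower in NSG knockout and higher in Balb/c knockout tumors, and 162 with the opposite order.

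4T1 is a mouse mammary carcinoma line from a Balb/c animal, and stands in for triple-negative disease in many studies. The NSG strain lacks mature T, B and NK cells but keeps macrophages, neutrophils and other myeloid cells, whereas the Balb/c strain has a full immune system and is matched to the tumor. The wild-type lines were parental 4T1 (Par) and 4T1 carrying vCas9, and the knockout lines were the CRISPR/Cas9 derivatives ko54 and ko69, called clone 54 and clone 69 below. Each line was grown in the mammary fat pad of both hosts, and tumors were taken after at most 20 days. Each group thus joins a host (NSG or Balb/c) with a genotype (wild type or knockout). The 2 samples of a group are different lines, listed throughout with the parental line or clone 54 first and the vCas9 line or clone 69 second. Knockout status and derivation from a numbered line cannot be told apart. Nothing in the labels says how many tumors or animals a sample holds, so p-values measure only the spread between these samples.

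CD95, encoded by Fas, is a cell-surface receptor that triggers apoptosis when bound by its ligand on cytotoxic lymphocytes and that can also signal in tumor cells without killing them. Tumors recruit macrophages and neutrophils, and macrophages exposed to interleukins of the type 2 immune response take on an alternatively activated state marked by particular lectins and chemokines. Bulk tumor RNA mixes tumor cells with these infiltrating cells, so fewer cells of a type and less RNA per cell cannot be told apart.

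Levels are given in CPM, the usual depth-scaled count unit, with TMM-scaled totals, and fold changes, standard errors and adjusted p-values come from edgeR. The targeted gene was at 33.9 and 22.6 CPM in NSG wild-type samples and at 29.5 and 12.9 CPM in NSG knockout samples. In Balb/c hosts Fas was at 51.6 and 46.9 CPM in wild type and at 27.1 and 33.7 CPM in knockout. The groups overlapped in NSG and not in Balb/c, and Fas transcript remained in every knockout sample. Its log2 fold change was -0.42 (SE 0.37) in NSG and -0.70 (SE 0.36) in Balb/c, and the difference between hosts was -0.28 (SE 0.51, edgeR adjusted p = 0.773). Fas counts therefore do not separate the genotypes in NSG, and the labels alone define the knockout groups. Because bulk counts mix tumor and host cells, the remaining transcript does not show whether the tumor cells lost CD95.

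Sample totals ranged from 8680070 to 19655945 counts, lowest in the NSG knockout samples and highest in Balb/c clone 54. The microRNA locus Mir6236 stood apart, taking 5.79% of counts in NSG clone 54 and 0.110% in Balb/c clone 54, against 0.506% to 1.43% in the other 6 samples. T cell markers summed to between 8.45 and 15.2 CPM in NSG samples and to between 864 and 1107 CPM in Balb/c samples. Epithelial markers were read in every sample, with sums from 816.4 to 4656 CPM, and these markers do not separate tumor cells from host epithelium. None of the listed marker genes that were found among the identifiers was at 0 in all samples. For T cells 17 of 20 listed genes were found, for B cells 12 of 15 and for hypoxia and glycolysis 25 of 26.

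About as many genes had opposite as equal signs of the knockout effect in the hosts, and no single gene passed the threshold for a difference. At an edgeR adjusted p under 0.05, 0 of 15310 genes (0%) had a different knockout effect in the hosts, with a smallest adjusted p of 0.0691. At an unadjusted p under 0.05 there were 3452 genes (22.5%), 1904 (12.4%) where the Balb/c effect was the more positive and 1548 (10.1%) where it was the more negative, and 2960 of them had opposite signs in the hosts. With RLE scaling 1512 were more positive and 1852 more negative, so the balance between directions depends on scaling. DESeq2 called 974 genes and edgeR with no filter on low counts 674, while leaving out Balb/c clone 69 gave 2370 calls and leaving out any other sample gave at most 1. Individual differences below are therefore reported as measured values, and for none of them did the difference between hosts pass in the edgeR test of all 8 samples with its filter on low counts. Of 44 genes named by rule, 40 were among the 674 that passed with no such filter, and 40 among the 974 of DESeq2. Most of the 44 were named for their fold changes or p-values in these same samples, so these counts give them no support.

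Within hosts, 2 genes passed for the knockout effect in NSG (0.0131% of those tested) and 27 in Balb/c (0.176%), 7 higher and 20 lower in knockout. Of these 27, 14 had the opposite sign in NSG, where 48.3% of all genes tested had opposite signs in the hosts. The NSG count was 0 or 1 without any single sample, and the Balb/c count reached 3886 without Balb/c clone 69 and 0 without either NSG wild-type sample. By sign alone, 25.1% of all genes were lower in NSG and higher in Balb/c knockout, 23.2% the reverse, 28.1% higher in both hosts and 23.3% lower in both.

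The reversing rule took 0.34% of tested genes in the lower-then-higher direction and 1.06% in the higher-then-lower direction. The same size and separation criteria with equal signs took 0.745% of genes higher in both hosts and 0.856% lower in both. In the main fit reversal was thus about as frequent as a shared direction, at 214 against 245 genes. Without 1 sample the reversing count ran from 203 to 420, and the shared-direction count was read in the main fit only. The rule reads the contrast it describes, so these counts carry no test. The last gene inside the lower-then-higher group was Ms4a6d, with a smaller fold change of 1.0 on the log2 scale, and the first outside was Tnip3 at 0.994. In the other direction Cmah lay just inside at 1.0 and Clip3 just outside at 0.997.

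**Figure D1:**
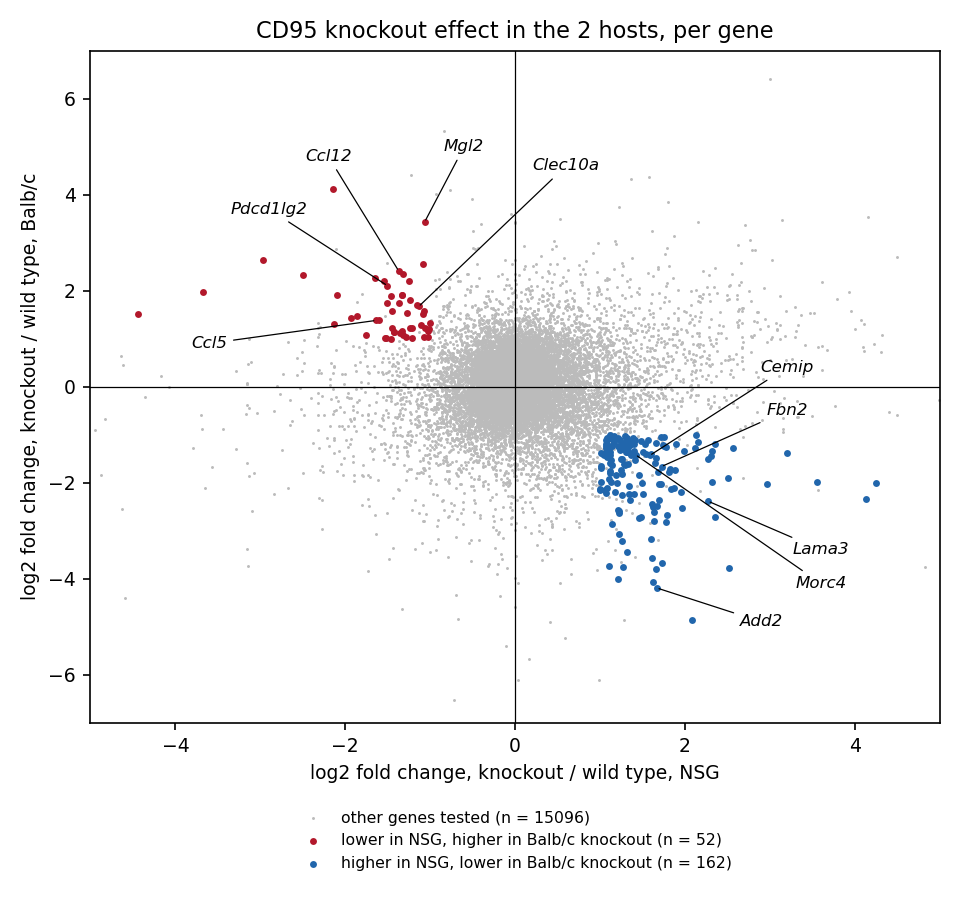
Each point is a gene, with the log2 fold change of knockout over wild type in NSG on the x axis and in Balb/c on the y axis; 52 reversing genes (red) lie at upper left and 162 (blue) at lower right, among 15096 other genes tested (grey), and 15 genes fall outside the axes. Points spread through all 4 quadrants, and the named genes carry leader lines.

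Genes lower in NSG knockout and higher in Balb/c knockout tumors included 5 of the 18 tested genes of the alternative activation list and 4 of the 29 chemokine ligands, where 0.34% of all genes met the rule in this direction. By the smaller of the fold changes in the hosts, low-count genes such as Syt5, Lipn and Ddx4 stood first, of which Syt5 and Ddx4 were chosen after their values were seen. Each had at most 3 counts in both samples of at least 1 group. Their median log2 fold change was -1.36 in NSG and 1.5 in Balb/c. Adjusted p-values for the difference ran from 0.0691 to 0.223, with 21 of the 52 under 0.10. The group held 48 protein-coding genes, its median longest transcript was 1888.5 bases against 3281 over all genes tested, and 17 genes reached 50 CPM in their highest group. Of the 52, 13 had at most 3 counts in each sample of some group, which makes their fold changes uncertain.

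Clec10a (chromosome 11, 70156197 to 70170834 in GRCm38) and its neighbour Mgl2 (chromosome 11, 70130329 to 70137550) encode galactose-binding lectins of macrophages and dendritic cells. Clec10a was at 23.3 and 20.4 CPM in NSG wild type and 9.63 and 10.2 CPM in NSG knockout. In Balb/c it was at 23.8 and 23.0 CPM in wild type and rose to 89.2 and 59.7 CPM in knockout, by 1.67 on the log2 scale (SE 0.22), with an edgeR adjusted p of 0.045. It was the only one of the 52 genes to pass within a host, and its difference between hosts was 2.81 (SE 0.31, adjusted p = 0.0691). Mgl2 was at 33.3 and 35.4 CPM against 10.8 and 22.0 CPM in NSG, and at 22.5 and 38.9 CPM against 523 and 143 CPM in Balb/c. The groups of both genes were separate in both hosts, and Balb/c clone 54 was the highest sample for each. The sequences of these lectins are closely related, so reads may be shared between them.

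Pdcd1lg2, which encodes the PD-1 ligand PD-L2, was at 6.16 and 4.72 CPM in NSG wild type and 2.57 and 1.29 CPM in NSG knockout. In Balb/c it was at 25.9 and 36.7 CPM in wild type and 201 and 68.4 CPM in knockout. The order of the groups reversed on top of a higher level in Balb/c wild-type tumors, and the difference of log2 fold changes was 3.61 (SE 0.77, edgeR adjusted p = 0.0893). Ccl17, a chemokine that attracts type 2 helper and regulatory T cells, was at 5.82 and 6.46 CPM against 2.57 and 2.59 CPM in NSG. Balb/c samples had 2.38 and 3.26 CPM in wild type and 20.9 and 4.96 CPM in knockout. Clone 54 thus carried most of the Balb/c difference in Ccl17, which was 3.44 between hosts (SE 0.86, edgeR adjusted p = 0.106).

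Promoter sequence is shown for Pdcd1lg2 and Ccl17 because they are reversing members of the alternative activation list whose RefSeq window holds the palindromic spacing read by STAT6, the factor that interleukins of the type 2 response activate. The 250 bases before each start site are given 5′ to 3′ on the plus strand (RefSeq, GRCm38.p6), chr19:29410669-29410918 for Pdcd1lg2 and chr8:94810203-94810452 for Ccl17. Capitals mark the match to that spacing, TTC and GAA with any 4 bases between them, which reads the same way on both strands.
Pdcd1lg2: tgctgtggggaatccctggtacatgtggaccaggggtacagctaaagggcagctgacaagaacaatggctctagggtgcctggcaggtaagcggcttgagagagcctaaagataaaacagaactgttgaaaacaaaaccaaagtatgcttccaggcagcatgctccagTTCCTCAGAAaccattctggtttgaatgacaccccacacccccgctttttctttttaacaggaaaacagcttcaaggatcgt
Ccl17: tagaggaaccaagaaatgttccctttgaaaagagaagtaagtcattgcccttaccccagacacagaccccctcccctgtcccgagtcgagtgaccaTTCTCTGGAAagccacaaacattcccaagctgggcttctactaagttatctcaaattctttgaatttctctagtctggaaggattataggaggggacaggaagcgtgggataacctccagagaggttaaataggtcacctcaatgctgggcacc
RefSeq windows of 300 bases, from 250 before to 50 after the start, were found by symbol for 30 of the 52 genes and 105 of the 162 genes. The TTC to GAA spacing was present for 4 of the 30 (13.3%) and 9 of the 105 (8.57%), and for 797 of 11845 genes tested with a window (6.73%). ACGTG, the core of the hypoxia response element, searched on both strands, was present for 13.3%, 21.9% and 27.8% of the same sets. Among every window in the table the shares were 6.95% for the TTC to GAA spacing and 19.6% for ACGTG. A match describes these letters and not a bound site.

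Of the chemokine ligands, the secreted attractants of leukocytes, 4 of 29 tested met the reversing rule in this direction, namely Ccl5, Ccl9, Ccl12 and Ccl17, where 0.34% of all genes did. Ccl9, a macrophage and dendritic cell attractant, was at 550.3 and 472 CPM in NSG wild type and 281 and 209.5 CPM in NSG knockout. Balb/c samples had 344 and 295 CPM in wild type and 901 and 599.6 CPM in knockout, and the difference between hosts was 2.29 (SE 0.37, edgeR adjusted p = 0.0778). Ccl5, which attracts T cells and is made by them, was at 6.72 and 3.56 CPM against 2.14 and 1.19 CPM in NSG, and at 25.1 and 48.0 CPM against 91.6 and 99.2 CPM in Balb/c. The Balb/c clones lay close together for Ccl5, and groups were separate in both hosts. Ccl12, a monocyte attractant related to Ccl2, was at 54.8 and 33.0 CPM against 9.63 and 24.3 CPM in NSG, and at 15 and 21 CPM against 156 and 35.6 CPM in Balb/c. Over the 29 ligands the median log2 fold change was -0.84 in NSG and 0.26 in Balb/c. Without NSG clone 69 the NSG median was -0.38, and the Balb/c median was 0.11 without clone 54 and 0.64 without clone 69. With a trend in GC content and length removed the Balb/c median was 0.03. At an unadjusted p under 0.05, 11 ligands had the Balb/c effect the more positive and 1 the more negative, against 12.4% and 10.1% of all genes.

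**Figure D2:**
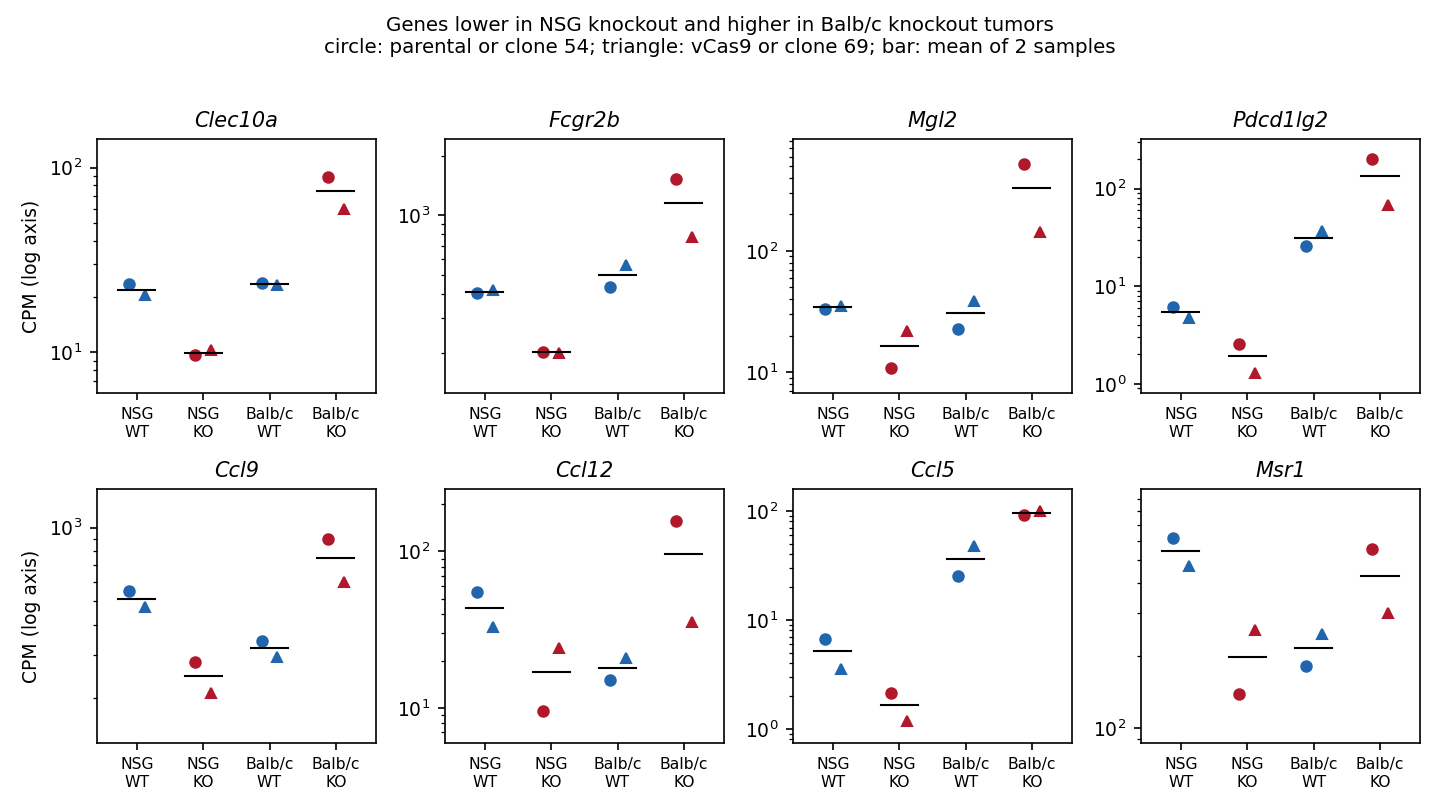
CPM on log axes in each of the 8 samples for 8 genes lower in NSG knockout (KO) and higher in Balb/c knockout than in wild type (WT). Circles are the parental line or clone 54, triangles the vCas9 line or clone 69, and bars the mean of 2 samples; Clec10a stands at 23.3 and 20.4 CPM in NSG wild type, at 9.63 and 10.2 CPM in NSG knockout and at 89.2 and 59.7 CPM in Balb/c knockout.

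Msr1, Fcgr2b and Trf also met the rule and were chosen after their values were seen. Msr1, a scavenger receptor of macrophages, was at 618 and 475 CPM against 139 and 257 CPM in NSG, and at 182 and 247 CPM against 558 and 302 CPM in Balb/c. Fcgr2b, the inhibitory receptor for immunoglobulin G, was at 402 and 417 CPM against 203 and 201 CPM in NSG, and at 432 and 562 CPM against 1517 and 778 CPM in Balb/c. Trf, which encodes the iron carrier transferrin, was at 545 and 784 CPM against 363 and 288 CPM in NSG, and at 417 and 467 CPM against 1167 and 800.2 CPM in Balb/c. For all of these the knockout samples lay beyond the wild-type samples in each host, and differences between hosts were 2.47 (SE 0.55), 2.23 (SE 0.45) and 2.18 (SE 0.39), with edgeR adjusted p-values of 0.0909, 0.0854 and 0.0794. Among genes named by rule, F7, coagulation factor VII, was at 14.1 and 16.4 CPM against 8.13 and 3.68 CPM in NSG, and at 18.7 and 23.6 CPM against 96.5 and 44.9 CPM in Balb/c. Ear2, an eosinophil-associated ribonuclease with close gene copies, was at 5.54 and 12.8 CPM against 4.28 and 2.39 CPM in NSG, and at 6.20 and 10 CPM against 37.9 and 22.5 CPM in Balb/c.

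Lists that hold these genes did not all lie in the same directions. The eosinophil and mast cell list, which holds Ear2, had medians of 0.42 in NSG and 1.02 in Balb/c, and 5 of its 21 genes (23.8%) were lower in NSG and higher in Balb/c knockout. Its NSG median was 0 without NSG clone 69, where 10 genes had that order, 0.15 without the NSG parental line and 1.05 without the NSG vCas9 line. The NK and cytotoxic list, which holds Ccl5, had medians of 0 and 0.75, and 7 of its 17 genes (41.2%) had that order. Its Balb/c median was 0.495 without the Balb/c parental line, and its NSG median was 0.446 with limma-voom. In NSG this list summed to only 11.08 and 8.78 CPM against 12.95 and 4.276 CPM, with 8 genes lower and 5 higher in knockout. Its NSG median and signs thus rest on low counts. Of 18 tested genes of alternative activation, 14 were lower in NSG and higher in Balb/c knockout, where 25.1% of all genes were, and 14 had an unadjusted p under 0.05 with the Balb/c effect the more positive, against 12.4% of all genes. Their median log2 fold change was -0.90 in NSG and 1.72 in Balb/c, the latter 1.11 without Balb/c clone 54. The summed level of the list was 9517 and 10840 CPM against 9626 and 10280 CPM in NSG, which overlapped, and 8233 and 8446 CPM against 26080 and 13960 CPM in Balb/c, which did not. Within Balb/c, 3 members rose past the threshold, Clec10a, the lectin-like Chil3 and the lipid receptor Cd36, where 7 of all 15310 genes did. Cd36 was named after its values were seen. Chil3 was at 91.0 and 83.5 CPM against 53.9 and 43.5 CPM in NSG, and at 48.8 and 75.4 CPM against 3724 and 1268 CPM in Balb/c, a difference between hosts of 6.17 (SE 0.70, edgeR adjusted p = 0.0691). Its NSG change of -0.84 kept it out of the reversing group.

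Of the 20 macrophage identity genes, 0 met the rule and 0 passed the edgeR threshold within a host or for the difference. By sign, 16 (80.0%) were lower in NSG and higher in Balb/c knockout, where 25.1% of all genes were. An unadjusted p under 0.05 with the Balb/c effect the more positive was found for 17 (85.0%), against 12.4% of all genes. The median was -0.84 in NSG and 1.29 in Balb/c, and it ranged over the alternatives tried from -0.86 to -0.68 in NSG and from 0.70 to 1.65 in Balb/c. C1qa, a subunit of complement C1q made by macrophages and chosen after its values were seen, was at 549 and 600.2 CPM against 261 and 358 CPM in NSG, and at 217 and 227 CPM against 1567 and 534 CPM in Balb/c. The summed level of the 20 genes was 7004 and 7874 CPM against 4848 and 4924 CPM in NSG, and 5616 and 5881 CPM against 19090 and 10050 CPM in Balb/c. Knockout and wild-type sums were separate in both hosts, and clones were close in NSG but far apart in Balb/c. MHC class II genes, which present antigen, had medians of -0.39 in NSG and 1.65 in Balb/c, the latter 0.76 without Balb/c clone 54, and 6 of the 10 (60.0%, against 12.4% of all genes) reached an unadjusted p under 0.05, all with the Balb/c effect the more positive. Because these cell-type genes moved with the lectins, the part of macrophage number in the change of single genes was not tested.

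The 2 genes called within NSG, Ccl24 and Odc1, and Pf4 and Rilpl2, which were among the smallest p-values for the difference, were below the fold change of the rule in a host. Ccl24, an eosinophil attractant of alternatively activated macrophages, was at 25.1 and 19.5 CPM in NSG wild type and fell to 3.10 and 4.38 CPM in NSG knockout. In Balb/c it was at 43.1 and 48.0 CPM against 70.6 and 68.1 CPM, and the difference between hosts was 3.18 (SE 0.30, edgeR adjusted p = 0.0691). Odc1, the first enzyme of polyamine synthesis from ornithine, was at 844 and 694 CPM in NSG wild type and fell to 190.4 and 167 CPM in knockout, with an adjusted p of 0.0316 within NSG for both genes. In Balb/c Odc1 was at 202 and 206 CPM against 176 and 174 CPM, so all 4 Balb/c samples sat near the NSG knockout level. Its difference between hosts was 1.89 (SE 0.26, adjusted p = 0.0734) and its sign was the same in both hosts. Pf4, a chemokine of platelets and macrophages, was at 111 and 82.6 CPM against 14.8 and 23.6 CPM in NSG, and at 35.1 and 44.8 CPM against 75.3 and 69.2 CPM in Balb/c. Rilpl2, a regulator of primary cilium content, was at 52.1 and 46.5 CPM against 22.3 and 18.9 CPM in NSG, and at 57.3 and 67.0 CPM against 116 and 99.6 CPM in Balb/c. Both had opposite signs in the hosts and an adjusted p of 0.0691 for the difference.

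Of 25 tested genes of hypoxia and glycolysis, 0 passed the threshold within NSG or for the difference, and 23 were lower in NSG knockout, as were 48.4% of all genes, with a median log2 fold change of -0.69, and the median in Balb/c was 0.01, which became -0.08 with RLE scaling. The summed level was 11540 and 10170 CPM against 7301 and 5768 CPM in NSG, and 8546 and 9541 CPM against 8815 and 9228 CPM in Balb/c. The NSG groups were separate while the Balb/c groups overlapped, and 10 genes had an unadjusted p under 0.05 with the Balb/c effect the more positive and 1 with a more negative one, against 12.4% and 10.1% of all genes. Vegfa, the main vessel growth factor, was chosen after its values were seen and was at 597 and 729 CPM against 273 and 260.3 CPM in NSG, and at 621 and 809 CPM against 565 and 738 CPM in Balb/c. Of 22 genes of amino acid stress and polyamine metabolism, 14 were lower in NSG and higher in Balb/c knockout (63.6%, against 25.1% of all genes) and 9 had an unadjusted p under 0.05, all more positive in Balb/c (40.9%, against 12.4%). Of 23 genes tested without Balb/c clone 54, 7 had that order, as did 9 of 22 with the GC and length trend removed. The count at an unadjusted p under 0.05 was 7 with RLE scaling and 7 with that trend removed. Their median was -0.46 in NSG and 0.21 in Balb/c, and the Balb/c median was -0.07 without Balb/c clone 54 and 0.42 without Balb/c clone 69.

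Genes with the opposite order, higher in NSG knockout and lower in Balb/c knockout tumors, included 2 of the 21 tested neutrophil genes, 2 of the 11 erythroid and platelet genes and 0 of the 21 fibroblast and collagen genes, where 1.06% of all genes met the rule. Their median log2 fold change was 1.34 in NSG and -1.52 in Balb/c. Their median longest transcript was 3320.5 bases, and median GC content was 49.1% against 49.7% for the other direction. Of the 162, 136 were protein coding (84.0%, against 94.8% of all genes), 40 had at most 3 counts in each sample of some group, and 30 reached 50 CPM in their highest group. Adjusted p-values for the difference ran from 0.0691 to 0.342, with 63 under 0.10.

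Lama3 encodes the alpha chain of laminin-332, the laminin that anchors epithelial cells to the basement membrane. It was at 18.2 and 44.2 CPM in NSG wild type and 149 and 152 CPM in NSG knockout. In Balb/c it was at 49.4 and 78.0 CPM in wild type and 9.42 and 15.0 CPM in knockout, so that the clones were alike in each host and lay on opposite sides of wild type. The log2 fold change was 2.27 (SE 0.43) in NSG and -2.39 (SE 0.44) in Balb/c, a difference of -4.66 (SE 0.61, edgeR adjusted p = 0.0734). Lamb3, the gene of its beta chain, was examined after these values were seen and was at 60.2 and 100.2 CPM against 143 and 174 CPM in NSG, and at 88.7 and 106 CPM against 7.93 and 57.5 CPM in Balb/c. The groups of Lamb3 were separate in both hosts, and its NSG log2 fold change of 0.98 fell just short of the rule. Its difference between hosts was -2.57 (SE 1.01, edgeR adjusted p = 0.19).

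Fbn2, a microfibril protein, was at 24.4 and 55.1 CPM against 128 and 135 CPM in NSG, and at 16.6 and 18.4 CPM against 4.55 and 6.56 CPM in Balb/c, a difference of -3.39 (SE 0.51, edgeR adjusted p = 0.0778). Of genes chosen after their values were seen, Cemip, which promotes hyaluronan breakdown, was at 6.99 and 9.69 CPM against 26.3 and 23.8 CPM in NSG, and at 5.10 and 7.42 CPM against 1.90 and 2.77 CPM in Balb/c. Adamts5, a protease of aggrecan and versican, was at 67.5 and 105 CPM against 244 and 164 CPM in NSG, and at 103 and 57.2 CPM against 32.1 and 23.9 CPM in Balb/c. None of these groups overlapped in either host. Tnxb, tenascin X, was at 293 and 447 CPM against 901 and 656 CPM in NSG, and at 543 and 265 CPM against 70.3 and 103 CPM in Balb/c. Svep1, a large adhesion protein of the matrix, was at 116 and 229 CPM against 354 and 341 CPM in NSG, and at 149 and 109.6 CPM against 42.7 and 22.2 CPM in Balb/c. Igfbp5, which binds insulin-like growth factors, was at 47.2 and 91.5 CPM against 417 and 197 CPM in NSG, and at 146 and 85.0 CPM against 33.3 and 70.5 CPM in Balb/c. Differences between hosts for these latter 5 genes, from Cemip to Igfbp5, lay between -2.75 and -3.30, with edgeR adjusted p-values from 0.0778 to 0.0922.

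**Figure D3:**
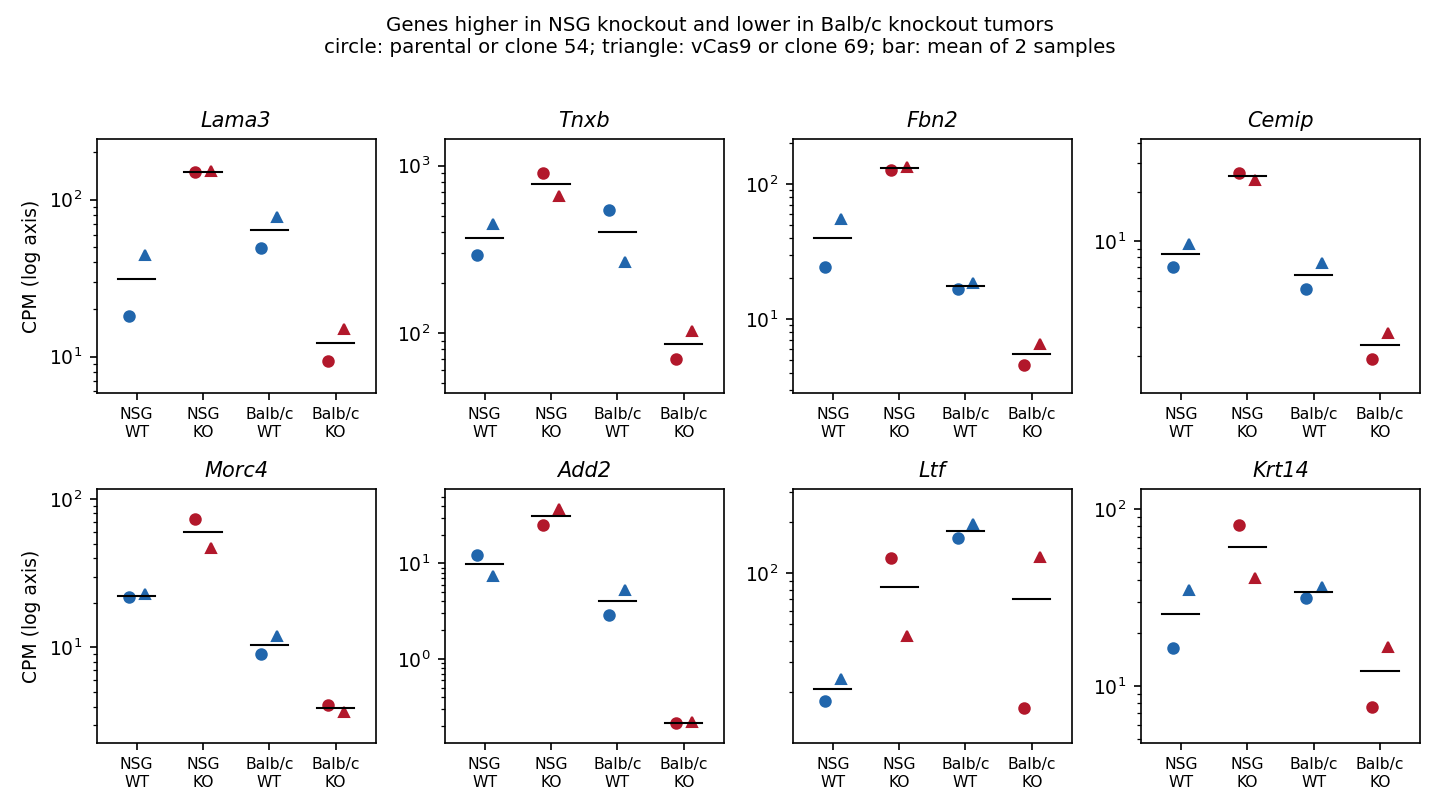
CPM on log axes in each of the 8 samples for 8 genes higher in NSG knockout (KO) and lower in Balb/c knockout than in wild type (WT), with circles for the parental line or clone 54, triangles for the vCas9 line or clone 69 and bars for the mean of 2 samples. Lama3 stands at 149 and 152 CPM in NSG knockout and at 9.42 and 15.0 CPM in Balb/c knockout, while for Ltf clone 54 lies farther from wild type than clone 69 in both hosts.

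The list of fibroblast and collagen genes depended on the clone. Of 21 fibroblast and collagen genes, 13 (61.9%) were higher in NSG and lower in Balb/c knockout, where 23.2% of all genes were, but 0 met the rule. At an unadjusted p under 0.05 the difference was positive for 2 (9.52%) and negative for 3 (14.3%), against 12.4% and 10.1% of all genes. Without Balb/c clone 54, 17 of the 21 were higher in NSG and lower in Balb/c knockout, and without Balb/c clone 69, 6 of the 21 were. Their median was 0.51 in NSG and -0.22 in Balb/c, the NSG median was 0.22 without the NSG parental line, and the Balb/c median was 0.34 without clone 69 and -1.05 without clone 54. The sum was 28640 and 40840 CPM against 50070 and 46210 CPM in NSG, and 20850 and 15300 CPM against 23570 and 10270 CPM in Balb/c, so the Balb/c groups overlapped. Whether the amount of fibroblast RNA had a part in the values of Fbn2, Tnxb or the genes beside them was not tested. Krt14, a keratin of basal epithelial cells, was at 16.3 and 35 CPM against 81.4 and 40.8 CPM in NSG, and at 31.5 and 36.5 CPM against 7.62 and 16.6 CPM in Balb/c, and was the only 1 of 18 epithelial genes to meet the rule, as 1.06% of all genes did. The epithelial median was 1.36 in NSG and 0.45 in Balb/c, the NSG value was 0.68 without NSG clone 54, and the Balb/c value was -1.44 without clone 69. Epithelial sums in Balb/c knockout were 816.4 CPM in clone 54 and 4656 CPM in clone 69.

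Add2 was the only one of the 162 genes to pass within a host. It encodes beta-adducin, a protein of the membrane skeleton of red cells and neurons, and lies on chromosome 6 from 86028681 to 86124409. It was at 12.1 and 7.45 CPM against 25.0 and 37.5 CPM in NSG. In Balb/c it was at 2.89 and 5.27 CPM in wild type and fell to 0.212 and 0.219 CPM in knockout, which rest on 4 and 3 counts, a log2 fold change of -4.20 with SE 0.54 and an edgeR adjusted p of 0.045. The difference between hosts was -5.87 (SE 0.65, adjusted p = 0.0691). Morc4, a nuclear ATPase that binds histone marks, was at 21.7 and 22.9 CPM against 72.9 and 46.7 CPM in NSG, and at 9 and 11.9 CPM against 4.13 and 3.65 CPM in Balb/c, a difference of -2.84 (SE 0.37, adjusted p = 0.0734). Both genes were separate between groups in both hosts, with the clones on the same side each time. Tns4, a focal adhesion protein, Ccn5, a matricellular protein, and the noncoding RNA Meg3 fell in Balb/c by 1.74 (SE 0.19), 1.64 (SE 0.21) and 2.31 (SE 0.24) on the log2 scale, each with an edgeR adjusted p of 0.045. Their NSG log2 fold changes were 0.48, 0.64 and 0.24, too small for the rule.

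Neutrophil genes divided the hosts less evenly. Ltf, which encodes the granule protein lactoferrin, was at 17.8 and 23.8 CPM against 123 and 42.6 CPM in NSG, and at 161 and 194 CPM against 16.2 and 124 CPM in Balb/c. Cxcr2, the receptor that draws neutrophils into tissue, was at 58.4 and 79.5 CPM against 223 and 98.9 CPM in NSG, and at 233 and 225 CPM against 35.7 and 156 CPM in Balb/c. For both genes clone 54 lay farther from wild type than clone 69 in each host. These were the 2 of 21 neutrophil genes that met the rule, where 1.06% of all genes did, and 12 genes (57.1%) had an unadjusted p under 0.05, all with the Balb/c effect the more negative, against 10.1% of all genes. The list median was -1.57 in Balb/c, and -2.72 there without clone 69. It was 0.12 in NSG, and the NSG median was -0.84 without clone 54 and 0.68 without clone 69. Without the NSG parental line it was -0.13, and with limma-voom -0.06, so its sign in NSG was not stable. The 12 genes became 5 without the NSG parental line and 6 without NSG clone 54. Summed levels were 5578 and 6418 CPM against 10160 and 5511 CPM in NSG, which overlapped, and 15290 and 13550 CPM against 2087 and 7235 CPM in Balb/c, which did not.

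Slc4a1, the anion exchanger of the red cell membrane, was at 4.50 and 5.38 CPM against 15.2 and 7.76 CPM in NSG, and at 10.8 and 9.15 CPM against 0.423 and 3.06 CPM in Balb/c. Again clone 54 lay farthest from wild type in each host. Of 11 erythroid and platelet genes, 8 (72.7%) were higher in NSG and lower in Balb/c knockout, where 23.2% of all genes were, with medians of 0.93 and -0.93. At an unadjusted p under 0.05 the difference was negative for 3 (27.3%) and positive for 1 (9.09%), against 10.1% and 12.4% of all genes. The negative count was 5 with total-count scaling and 6 with the GC and length trend removed. The threshold was passed by 0 genes. The NSG median was 0.44 without NSG clone 54, and the Balb/c median was -0.31 without Balb/c clone 54 and -2.42 without Balb/c clone 69. Their sum was 1287 and 1636 CPM against 3507 and 1925 CPM in NSG, and 1949 and 1813 CPM against 413.3 and 1659 CPM in Balb/c. The part of blood content in the reversing genes was not tested.

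**Figure D4:**
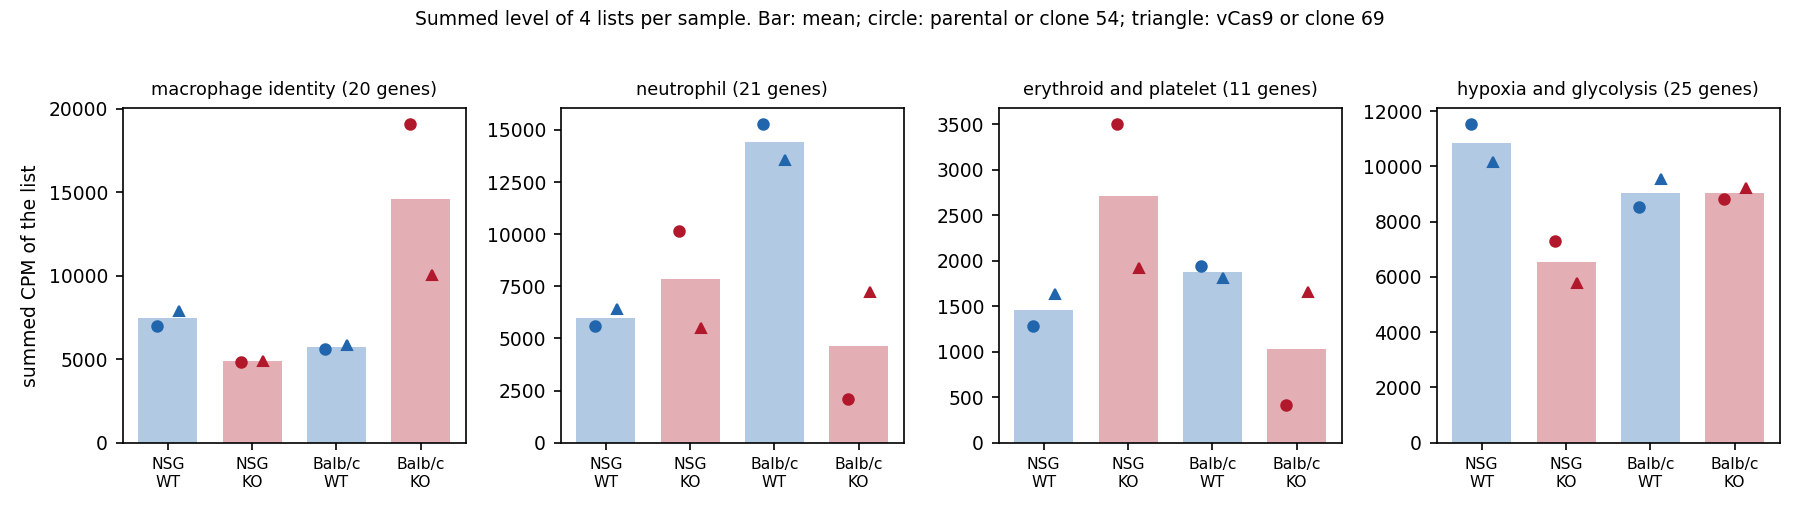
Summed CPM of 4 gene lists in each of the 8 samples, with bars for the mean of 2 samples, circles for the parental line or clone 54 and triangles for the vCas9 line or clone 69. Macrophage sums are 4848 and 4924 CPM in NSG knockout and 19090 and 10050 CPM in Balb/c knockout, and neutrophil and erythroid sums of clone 54 are the highest of the NSG samples and the lowest of the Balb/c samples.

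The clones did not lie equally far from wild type. Clone 54 lay farther than clone 69 for 118 of the 162 higher-then-lower genes (72.8%) in NSG and for 118 in Balb/c. Among all genes with a fold change of at least 1 on the log2 scale and separate groups, the share was 74.2% of those higher in NSG knockout and 77.4% of those lower in Balb/c knockout, so the 162 genes were near the background. Among the 52 genes of the other direction the number was 30 (57.7%) in NSG and 36 (69.2%) in Balb/c, against 38.5% of such genes lower in NSG and 74.5% of those higher in Balb/c knockout. Mir6236 was at 6439.8 and 12284 CPM against 56423 and 12324 CPM in NSG, and at 5437 and 7096 CPM against 1145 and 6439.6 CPM in Balb/c. The Balb/c groups of Mir6236 overlapped, while Lars2, a mitochondrial leucyl-tRNA synthetase gene, met the rule. Lars2 was at 120.2 and 109.7 CPM against 961 and 398 CPM in NSG, and at 704 and 300.5 CPM against 140.3 and 275 CPM in Balb/c. Both were singled out after their values were seen, and their part in the other genes' values was not tested.

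Genes of lymphocytes were read at low level in NSG tumors. Blk, a B cell kinase, was at 0.139 and 0.0828 CPM against 0.321 and 0.398 CPM in NSG, at most 4 counts in a sample, and at 17.3 and 4.37 CPM against 1.01 and 1.39 CPM in Balb/c. Txk, a T cell kinase, was at 0.485 and 0.828 CPM against 2.78 and 1.89 CPM in NSG, and at 139 and 57.2 CPM against 17.5 and 27.3 CPM in Balb/c. Both met the rule, but the NSG side rests on few counts and the Balb/c wild-type samples differed widely. B cell genes summed to 419.7 and 76.85 CPM in Balb/c wild type and 64.96 and 48.58 CPM in knockout, with medians of -0.03 in NSG and -3.28 in Balb/c, the latter -1.77 without the Balb/c parental line. T cell genes had medians of -0.52 in NSG and 0.06 in Balb/c, the latter -0.03 with RLE scaling and -0.23 without the Balb/c vCas9 line, and the former -0.17 without NSG clone 54. Fasl, the CD95 ligand of cytotoxic lymphocytes, had 5 counts in each NSG wild-type sample and 2 and 0 in NSG knockout, and was at 19.4 and 23.6 CPM against 39.3 and 34.0 CPM in Balb/c, an edgeR adjusted p of 0.152 for the difference.

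The remaining lists are given by their medians in NSG and then in Balb/c. Skin genes, of which 4 were tested, had medians of 0.61 and -1.12, the latter 0.10 without the Balb/c vCas9 line and the former -0.13 without NSG clone 54. Mammary gland genes had 1.67 and 0.07, the latter -1.08 without Balb/c clone 69, and EGF family genes 0.36 and -0.32. The EGF family median was 0.11 in NSG without the NSG vCas9 line, and in Balb/c -0.14 without clone 54 and -0.53 without clone 69. Dendritic cell genes had -0.51 and 0.26, with 9 of 15 lower in NSG and higher in Balb/c knockout (60.0%, against 25.1% of all genes). Without Balb/c clone 54 that number was 5 and the Balb/c median -0.07, and without NSG clone 69 the NSG median was -0.95. Endothelial genes had 0.39 and 1.42, the former -0.32 without NSG clone 69. In each host 14 of 16 were higher in knockout, as were 51.3% of all genes in NSG and 8158 of 15310 in Balb/c. Without NSG clone 69, 12 of the 16 were lower in NSG and higher in Balb/c knockout, against 1 in the main fit. Adipocyte genes had 1.10 and 0.43, the latter -0.36 without Balb/c clone 69. Skeletal muscle genes had 0.77 and -0.04. Their Balb/c median was 2.03 without the Balb/c vCas9 line and -0.57 without the Balb/c parental line. It was 0.58 without Balb/c clone 54 and -1.68 without Balb/c clone 69. Inflammatory mediators had medians of -0.98 and -0.85, interferon response genes 0.22 and 0.10, nerve genes 0.16 and 0.34, proliferation genes -0.08 and 0.06, and CD95 and other death receptors -0.02 and 0.05. Leaving out single samples changed the sign of a median in all of these last lists but the inflammatory mediators. Over all genes tested the medians were 0.01 and 0.06.

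**Figure D5:**
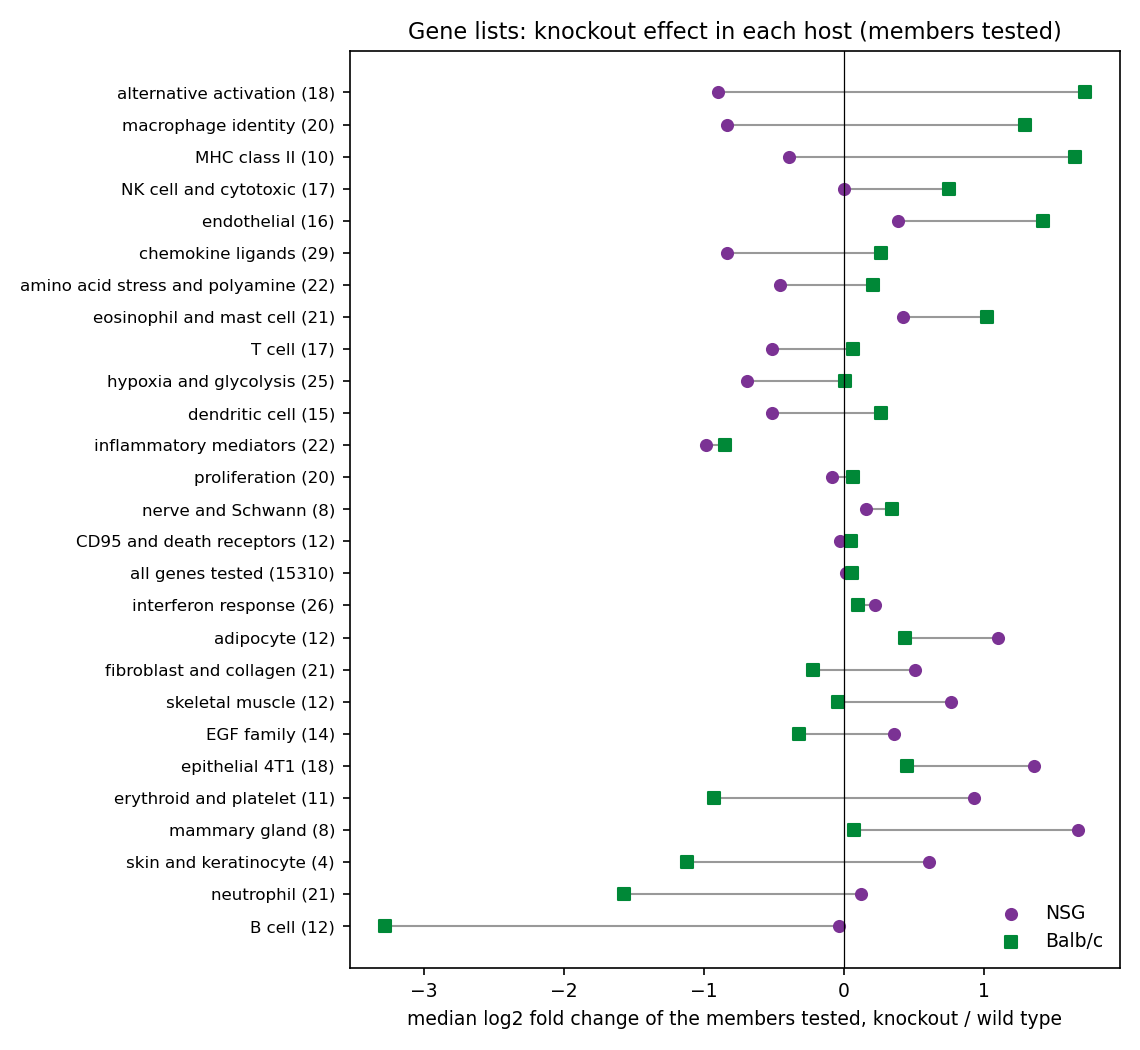
Median log2 fold change of knockout over wild type in NSG (purple circles) and Balb/c (green squares) for each gene list, with the number of genes tested in parentheses, ordered by the median difference between hosts. Alternative activation, macrophage identity and MHC class II medians lie below 0 in NSG and above 0 in Balb/c, erythroid and neutrophil medians the other way, and all genes tested lie near 0.

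As a description, signs were also compared between lines within the same 8 samples. Genes past a log2 difference of 1 with opposite signs in the hosts were picked from 1 knockout and 1 wild-type line, using log2 of CPM plus 1, and the signs were read in the other knockout and wild-type line. In the lower-then-higher direction, clone 54 with the parental line picked 67 genes, and 71.6% had the same signs in clone 69 with the vCas9 line, where 23.6% of all genes did. The other line combinations picked 11, 59 and 27 genes and gave 81.8%, 71.2% and 70.4%, against 28.1%, 25.0% and 27.9% of all genes. In the higher-then-lower direction, clone 54 with the parental line picked 237 genes, and 67.1% kept their signs, against 23.8% of all genes. Clone 54 with the vCas9 line picked 209 genes, of which 33.5% had the same signs in clone 69 with the parental line, close to the 24.4% of all genes. The remaining combinations picked 17 and 108 genes and gave 58.8% and 67.6%, against 24.7% and 25.7%. The share that also passed a log2 difference of 1 in both hosts in the second lines was between 2.11% and 29.4%, against 0.0718% to 1.55% of all genes. The 4 combinations are 2 divisions of the same samples read both ways, genes that belong to 1 cell type move together, and these shares carry no test.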

How the data were processed

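RNA of 8 tumor samples was sequenced. Per the labels, RNA extraction used the miRNeasy kit with DNase treatment before Illumina library preparation. The authors deposited whole-number counts per Ensembl gene, 1 sample per file, with no normalization visible in them. The submitters' processing notes name cutadapt 1.13, STAR, HTSeq 0.6.1p1 and DESeq2, and the builds mm10 and hg19, with no role or order. Strand setting and annotation are not given in the sources used here, so values of overlapping, antisense and near-identical genes are uncertain. Symbols were found for 24942 of 25006 identifiers, and positions, gene types and transcript lengths come from GENCODE M21 (GRCm38, the assembly that mm10 names).

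The main test was run with edgeR 4.0.16 under R 4.3.3 (TMM scaling, filterByExpr, glmQLFit, glmQLFTest, 4 group means over all 8 samples, 4 residual degrees of freedom). The common biological coefficient of variation was 0.244, 15310 genes were tested, and p-values were adjusted over all of them (Benjamini-Hochberg, threshold 0.05). CPM values were computed from the deposited counts with TMM-scaled totals. A level of 3 counts corresponds to 0.159 to 0.321 CPM, and such limits cover counting error only. The script was tested on simulated data. DESeq2 1.42.0, limma-voom (limma 3.58.1), other scalings and filters, thinning to the smallest total count, a cell line block and leaving out each sample were alternatives, and a trend with GC content and length was added after seeing the data.

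Each line was grown in both hosts, so the line could pair samples. Across genes, the clone 54 less clone 69 difference had a correlation of r = -0.353 between the hosts, and the parental less vCas9 difference of r = 0.0875, so the fit without the block was kept as planned. The negative value means that the difference between the clones itself tended to change direction with the host. The part of that tendency in the reversing genes was not tested.

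Genes named were Fas, Fasl, Ccl24 and Odc1, up to 12 reversing genes per direction with the largest smaller-host fold change, the 5 genes per direction with the smallest p for the difference, and list members meeting the reversing rule. The highest group had to average at least 5 CPM for the ranked genes, and model names (Gm, Rik) were passed over. That rule gave 44 genes, not all of which are described, and some genes are not reported here. The members and the lists were chosen with earlier results of these data known, so a list's direction is no independent evidence. Lists were described by counts and medians, with no set test.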

Additional observations from a re-analysis of the deposited data

Results flagged for a closer look

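A difference in direction between the hosts, in every sample, marked 52 genes that were lower in both NSG knockout samples and higher in both Balb/c knockout samples than in both wild-type samples, and 162 genes with the opposite order. Fold changes were at least 1 on the log2 scale in each host. The difference between hosts was tested gene by gene and passed the edgeR threshold for 0 of these genes. No test was run on the sets as a whole. Among the 52 were Clec10a, Mgl2, Pdcd1lg2 and 4 chemokine ligands, and among the 162 were Lama3, Fbn2 and Add2.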

How the results depend on the processing

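The count of genes whose knockout effect differed between hosts, 0, was the same with RLE scaling, total-count scaling, a filter of 1 CPM in 4 samples, limma-voom, thinning and the GC and length trend, with smallest adjusted p-values from 0.0556 to 0.076. It was 674 with no low-count filter, 974 with DESeq2 and 485 at an adjusted p under 0.10. A replicate block by line left it at 0 (smallest adjusted p 0.246, 2464 genes at an unadjusted p under 0.05), and with the block plus the GC and length trend 0 (2014 genes at that p). A crossed block, pairing clone 54 in 1 host with clone 69 in the other, gave 307. No paired analysis was possible for the effects within hosts because each line has 1 genotype and 1 sample per host. Leaving out 1 sample gave 0 to 2370 genes, and 2013 to 5369 at an unadjusted p under 0.05. The single gene called without NSG clone 54 was 3110039I08Rik, and without Balb/c clone 54 Chil3.

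The NSG count of 2 became 133 with no low-count filter, 340 with DESeq2, 1 with limma-voom, 4 with the GC and length trend and 0 to 1 without 1 sample. The Balb/c count of 27 became 94 with RLE scaling, 1774 with no filter, 2144 with DESeq2, 12 with the GC and length trend and 0 to 3886 without 1 sample. Reversing genes numbered 370 (89 lower-then-higher, 281 higher-then-lower) with no filter, 661 (204 and 457) at a log2 minimum of 0.58 and 11 (3 and 8) at 2, and the stricter filter left 32 lower-then-higher. Without 1 sample they numbered 203 to 420 (36 to 111 and 139 to 357). The cause was not tested in any of these cases. The share of genes picked in clone 69 with the vCas9 line in the higher-then-lower direction that kept their signs, 58.8%, was 100% of 4 genes with a pseudocount of 5. Most of the 44 named genes were chosen for their fold changes or p-values in these same samples, so the directions they kept are no independent evidence. Of 833 alternative values of the 44 named genes, 685 kept direction and side of the threshold, 147 passed it, and 1 reversed, Fas, whose difference of -0.28 ran from -0.75 to 0.44 without 1 sample, the latter without NSG clone 54 (edgeR adjusted p = 0.585).

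Totals as low as 8680070 counts and 2 samples per group limit what can be read for low-count genes.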
